A study of Mus musculus with 18 samples.

Results

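Lymphocyte genes were read out of bulk liver RNA from 18 mouse libraries. They comprise 36 named markers: 12 of T cells, 11 of natural killer (NK) and cytotoxic cells, 11 of B cells and 2 of plasma cells. Of the 36, 35 were matched by symbol among the 37315 genes of the count table, and Ighd was not analysed here. Another 2, Eomes and Pax5, held too few reads to be tested, so tests cover 33 members. All mice were of the C57BL/6J strain and fall into 6 groups of 3 libraries, each labelled as a mix of males and females. At 2, 8 and 16 weeks of age, 1 group was injected intraperitoneally once a day with asparaginase (Elspar) at 3 IU per g body weight, and 1 group received phosphate buffered saline (PBS) alone in the same volume. The course ran for 7 injections at 2 and 16 weeks and for 8 injections at 8 weeks, in asparaginase and PBS mice alike. Asparaginase is an enzyme drug for lymphoid leukaemia that depletes asparagine from the blood. Each library was treated as 1 mouse, and replicate numbers follow the order of deposition.

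The liver holds resident and passing lymphocytes beside its hepatocytes and macrophages. T cells recognise antigen through a receptor that signals through the CD3 chains and the kinase LCK, with CD4 or CD8 as coreceptors. NK cells and CD8 T cells kill target cells by releasing perforin, which opens the target membrane, and granzymes, proteases that enter through it. B cells signal through CD79A and CD79B, the chains that accompany membrane immunoglobulin, and mature into plasma cells, which secrete antibody. IgM (heavy chain gene Ighm) and IgA are joined into multimers by the J chain, the product of Jchain. In mice the liver makes blood cells before birth and for a short time after it.

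The libraries held between 24690871 and 46949361 counts. Liver identity was clear, since the 10 genes of a hepatocyte list summed to between 63500 and 107000 CPM (a count divided by its library's TMM-scaled size, brought to 1 shared total) in every library. Of the 2-week libraries, 3 (PBS replicates 1 and 2, asparaginase replicate 3) held both Xist and Y-linked transcripts and so did not match 1 sex, whereas the other 15 libraries matched their labelled sex. Transcripts of other tissues varied between libraries. In adult livers, skeletal muscle genes (10 genes) summed to between 2.59 and 2080 CPM, both ends in treated females. Pancreatic acinar genes (12 genes) summed to between 9.80 and 4400 CPM, with the highest value in asparaginase replicate 3 of 16 weeks, and squamous epithelium genes reached 805 and 423 CPM in asparaginase replicates 1 and 2 of 8 weeks. Glycam1, a marker of the vessels through which lymphocytes enter lymph nodes, had 256 counts in asparaginase replicate 3 of 16 weeks, 50 in asparaginase replicate 3 of 2 weeks and 26 in PBS replicate 2 of 16 weeks, and at most 3 in any other library.

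Most lymphocyte genes were scarce. Of the T cell genes in PBS livers of 16 weeks, Cd3e had 33 counts over 3 libraries, Cd3d 42 and Cd3g 67, in libraries of 35862867 to 45358073 counts. Among genes compared per kb of exon, Ighm was the most abundant in those livers at 24.3 CPM per kb, followed by Jchain at 3.37 CPM per kb, Ccl5 (a chemokine made by T and NK cells) at 1.15 and Cd79b at 0.763. The first 2 rest on PBS replicate 2: Ighm stood at 4.15, 55.7 and 13.1 CPM per kb in the 3 libraries and Jchain at 1.21, 7.6 and 1.31, against 1.56, 1.28 and 0.62 for Ccl5, so that Jchain and Ccl5 overlapped. At 2 weeks the order in PBS livers was Ighm at 3.51 CPM per kb, Ccl5 at 2.00, Gzma at 1.43 and Gzmb at 1.35. Levels of Ccl5, Gzma and Gzmb lay within 1 SD of each other there, whereas Jchain was at 0.173 CPM per kb. Eomes, a transcription factor of NK cells, had 31 counts over the 18 libraries, with 0 to 5 in each, and Pax5, the factor that maintains B cell identity, had 58 counts, with 0 to 11 in each. In bulk RNA, fewer cells of a type and less RNA per cell cannot be told apart.

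**Figure D1:**
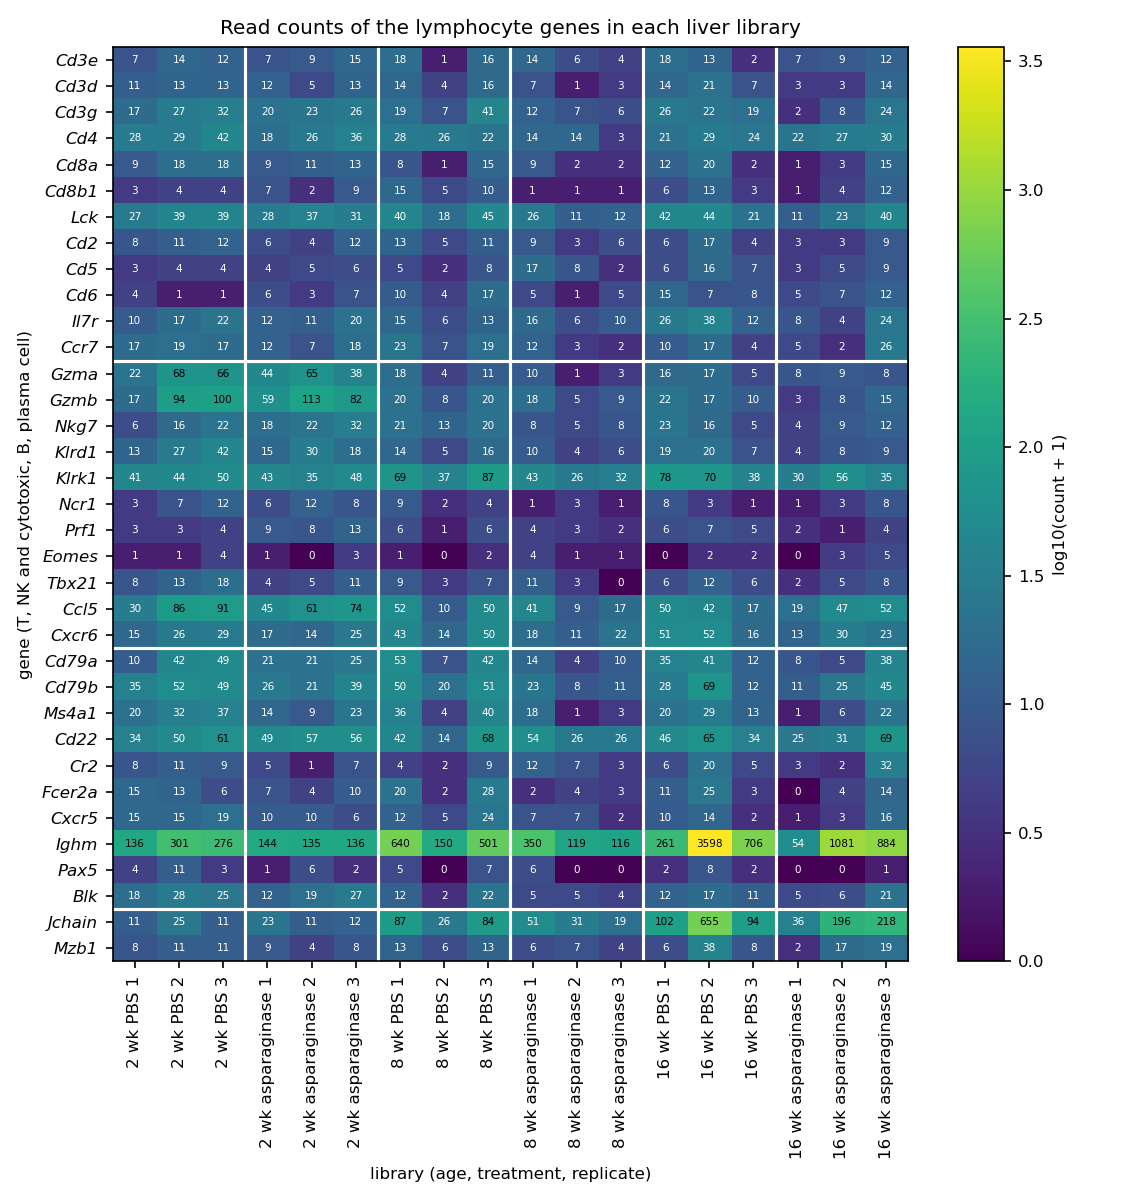
Read counts of the 35 matched lymphocyte genes (rows, in the order T, NK and cytotoxic, B and plasma cell) in the 18 libraries (columns), with the count printed in each cell and the colour on a log10(count + 1) scale. Most cells hold fewer than 100 counts. Gzma and Gzmb are brightest in the 2-week columns, apart from Gzmb in PBS replicate 1 of that age. Ighm and Jchain reach 3598 and 655 counts in PBS replicate 2 of 16 weeks.

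With age, the granzyme genes fell most among the NK and cytotoxic members tested, while perforin did not pass. In PBS livers, Gzma (granzyme A, chr13:113093825-113100981 of GRCm38, minus strand) had 22, 68 and 66 counts at 2 weeks, 18, 4 and 11 at 8 weeks, and 16, 17 and 5 at 16 weeks. Every 2-week library stood above every older one, both in counts and in CPM (1.44 ± 0.685 CPM at 2 weeks, 0.327 ± 0.225 at 8 weeks and 0.384 ± 0.181 at 16 weeks, mean ± SD, n = 3). Gzma fell by 2.65 on the log2 scale from 2 to 8 weeks (SE 0.48, adjusted p = 0.00143, edgeR quasi-likelihood test) and fell by 2.09 from 2 to 16 weeks (SE 0.46, adjusted p = 0.00498). Gzmb (granzyme B) had 17, 94 and 100 counts at 2 weeks, 20, 8 and 20 at 8 weeks, and 22, 17 and 10 at 16 weeks. In PBS replicate 1 of 2 weeks, 1 of the libraries with transcripts of both sexes, Gzmb lay within the range of older livers, so the ages overlapped. Gzmb fell by 2.31 to 8 weeks (SE 0.55, adjusted p = 0.00667) and fell by 2.21 to 16 weeks (SE 0.54, adjusted p = 0.00908). The asparaginase livers, whose ages were not compared by a test, showed the same order, with 44, 65 and 38 counts of Gzma at 2 weeks, 10, 1 and 3 at 8 weeks and 8, 9 and 8 at 16 weeks. Prf1 (perforin) had 3, 3 and 4 counts in PBS livers of 2 weeks, 6, 1 and 6 at 8 weeks and 6, 7 and 5 at 16 weeks, with estimates of 0.11 and 0.83 (adjusted p = 0.899 and 0.294). The fall of Gzma to 16 weeks did not pass without PBS replicate 3 of 16 weeks (adjusted p = 0.118), nor that of Gzmb to 8 weeks without PBS replicate 2 of 8 weeks (adjusted p = 0.0533). In limma-voom the falls of Gzmb to 8 and to 16 weeks did not pass (-1.98 and -1.91, adjusted p = 0.0525 and 0.067).

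Of the other NK and cytotoxic members, Klrd1 (CD94, a chain of NK receptors) and Ccl5 also fell from 2 to 8 weeks. Klrd1 had 13, 27 and 42 counts at 2 weeks against 14, 5 and 16 at 8 weeks, and fell by 1.42 (SE 0.43, adjusted p = 0.0238). Ccl5 had 30, 86 and 91 counts against 52, 10 and 50, and fell by 1.35 (SE 0.42, adjusted p = 0.0263). In each of these genes the lowest 2-week library overlapped the 8-week ones. Neither passed the test at 16 weeks, with -0.96 for Klrd1 (adjusted p = 0.105) and -1.05 for Ccl5 (adjusted p = 0.0718). In all, 4 of the 10 NK and cytotoxic members tested passed as lower between 2 and 8 weeks and 0 as higher. Among all genes 16.1% passed as lower and 13.8% as higher. Of the 10 member estimates, 6 lay below 0 and 4 above. Over the class the median log2 change was -0.96, against -0.02 over all genes. Klrk1 (NKG2D, an activating receptor) was among the members with an estimate above 0. It did not pass, at 0.43 from 2 to 8 weeks and 0.51 from 2 to 16 weeks (adjusted p = 0.187 and 0.129). Mean levels of Cxcr6 and Nkg7 in PBS livers were 0.651 and 0.407 CPM at 2 weeks and 1.03 and 0.533 CPM at 8 weeks. The class therefore did not move as a block. The calls of Klrd1 and Ccl5 were lost when PBS replicate 2 or 3 of 2 weeks or PBS replicate 2 of 8 weeks was left out, and that of Ccl5 also without PBS replicate 3 of 8 weeks (adjusted p from 0.0549 to 0.180). Without the sex term Klrd1 gave -1.16 and Ccl5 -0.82 (adjusted p = 0.103 and 0.322). In limma-voom Ccl5 did not pass (-1.2, adjusted p = 0.0582).

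The promoters of Gzma and Gzmb are shown because these genes fell together, and those of Cd3e and Cd3d because these neighbours on chromosome 9 were both lower in adult males. Each run is the 250 bases before the RefSeq transcription start on GRCm38.p6, 5′ to 3′ on the gene's strand: Gzma at chr13:113100982-113101231 (minus), Gzmb at chr14:56262335-56262584 (minus), Cd3e at chr9:45009612-45009861 (minus) and Cd3d at chr9:44981536-44981785 (plus). Capitals mark the letters TGTGGTT, the core bound by RUNX factors, or AGGAAGTG, a form bound by ETS factors, on either strand.
Gzma: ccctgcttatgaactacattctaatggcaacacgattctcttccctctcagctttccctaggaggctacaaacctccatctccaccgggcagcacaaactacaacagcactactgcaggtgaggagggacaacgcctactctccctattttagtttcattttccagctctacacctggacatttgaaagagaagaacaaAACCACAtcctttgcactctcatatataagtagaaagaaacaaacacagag
Gzmb: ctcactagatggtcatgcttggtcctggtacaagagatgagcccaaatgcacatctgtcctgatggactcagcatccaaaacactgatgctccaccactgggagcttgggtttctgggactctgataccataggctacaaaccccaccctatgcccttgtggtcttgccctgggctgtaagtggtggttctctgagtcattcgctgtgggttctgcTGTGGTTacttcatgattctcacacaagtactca
Cd3e: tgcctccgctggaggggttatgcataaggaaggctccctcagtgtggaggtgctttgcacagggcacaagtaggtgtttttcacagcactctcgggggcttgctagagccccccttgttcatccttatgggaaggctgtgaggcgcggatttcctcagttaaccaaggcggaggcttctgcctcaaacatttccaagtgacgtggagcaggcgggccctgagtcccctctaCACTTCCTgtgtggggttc
Cd3d: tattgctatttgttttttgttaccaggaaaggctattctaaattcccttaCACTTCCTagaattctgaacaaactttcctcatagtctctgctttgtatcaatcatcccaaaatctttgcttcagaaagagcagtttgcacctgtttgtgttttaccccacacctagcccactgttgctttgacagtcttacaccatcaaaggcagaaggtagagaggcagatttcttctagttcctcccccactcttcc
The RUNX letters begin 51 bases before the start of Gzma, on the reverse strand, and 34 bases before that of Gzmb. The ETS letters begin 19 bases before the start of Cd3e and 200 bases before that of Cd3d, on the reverse strand in each. Windows of 300 bases (250 before to 50 after the start) were found for 22 of the 36 members. A member was counted if any of its windows held the letters, whereas the shares over all genes are per window. TGTGGTT was in 6 of the 22 (Lck, Il7r, Gzma, Gzmb, Klrk1 and Ncr1) and in 5.27% of 32851 windows of all genes. AGGAAGTG was in 4 (Cd3e, Cd3d, Lck and Cd79a) and in 4.07% of all windows. Of the other letters searched on both strands, the octamer ATGCAAAT was in 0 of the 22 (1.74% of all), the T-box form AGGTGTGA in Nkg7 (1.28% of all) and the EBF motif in Cd22 (0.904% of all). These strings do not overlap as spelled, and a match is a description of letters only.

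T cell genes did not change in 1 direction with age. Cd8a (a chain of the CD8 coreceptor) had 9, 18 and 18 counts at 2 weeks, 8, 1 and 15 at 8 weeks, and 12, 20 and 2 at 16 weeks in PBS livers. The ages overlapped, and the lowest value at each older age was the male library. With labelled sex in the fit, Cd8a fell by 1.63 from 2 to 8 weeks (SE 0.42, adjusted p = 0.0105) and fell by 1.26 from 2 to 16 weeks (SE 0.40, adjusted p = 0.0356). Its partner Cd8b1 had 3, 4 and 4 counts at 2 weeks and 15, 5 and 10 at 8 weeks, an estimate of 1.29 (adjusted p = 0.105). Cd6, a T cell surface receptor, had 4, 1 and 1 counts at 2 weeks, 10, 4 and 17 at 8 weeks and 15, 7 and 8 at 16 weeks, so that 1 library of 8 weeks met the highest of 2 weeks in counts. Cd6 rose by 2.05 (SE 0.66, adjusted p = 0.0318) and by 2.25 (SE 0.64, adjusted p = 0.0199). Ccr7, the receptor that guides naive T cells into lymph nodes, had 17, 19 and 17 counts at 2 weeks and 10, 17 and 4 at 16 weeks, and fell by 1.35 (SE 0.45, adjusted p = 0.0391). Cd8a did not pass to 8 weeks without PBS replicate 2 of 8 weeks (adjusted p = 0.102). Without the sex term Cd8a gave -0.87 to 8 weeks and -0.28 to 16 weeks and Ccr7 gave -0.65 (adjusted p = 0.466, 0.834 and 0.58), and in DESeq2 the 16-week changes of Cd8a and Ccr7 and the 8-week change of Cd6 did not pass (adjusted p = 0.13, 0.0823 and 0.0573). Of 18 fits that each left out 1 library, the others passed in fewer: Cd8a to 16 weeks in 12, Cd6 in 12 and 14, and Ccr7 in 10, and all of them failed without PBS replicate 2 or 3 of 2 weeks, among other libraries.

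Among B and plasma cell genes, Jchain and Ighm rose by 16 weeks, and the count of Ighm does not separate membrane from secreted IgM. Jchain (chr5:88519809-88527891, minus strand) had 11, 25 and 11 counts in PBS livers of 2 weeks, 87, 26 and 84 at 8 weeks, and 102, 655 and 94 at 16 weeks, which corresponds to 0.436 ± 0.210, 1.91 ± 0.970 and 8.49 ± 9.21 CPM (SD, n = 3). All older libraries stood above the 2-week ones, and PBS replicate 2 of 16 weeks, the library with 26 counts of Glycam1, stood far above the others. Jchain rose by 3.83 from 2 to 16 weeks (SE 0.70, adjusted p = 0.00145), and its 1.81 from 2 to 8 weeks did not pass (adjusted p = 0.0702). Ighm had 136, 301 and 276 counts at 2 weeks and 261, 3598 and 706 at 16 weeks, with the lowest 16-week library inside the 2-week range, and rose by 2.52 (SE 0.84, adjusted p = 0.0409). This call rests on single libraries, since Ighm passed in 5 of 18 fits that left out 1 library, whereas Jchain passed in 18 of 18. Without PBS replicate 2 of 16 weeks, Ighm gave 1.28 (adjusted p = 0.271), and in limma-voom it gave 1.9 (adjusted p = 0.176). Cxcr5, which guides B cells into follicles, had 15, 15 and 19 counts at 2 weeks and 10, 14 and 2 at 16 weeks, and fell by 1.71 (SE 0.46, adjusted p = 0.0151). It did not pass without PBS replicate 3 of 2 weeks or PBS replicates 1 or 3 of 16 weeks (adjusted p from 0.0513 to 0.0655), and without the sex term it gave -0.79 (adjusted p = 0.468). Mzb1, a chaperone of IgM assembly whose exons overlap another gene on the same strand, had 8, 11 and 11 counts at 2 weeks and 6, 38 and 8 at 16 weeks and did not pass.

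In all, 6 of 33 members passed between 2 and 8 weeks (1 rose, 5 fell), where 29.9% of the genes tested did, with 13.8% higher and 16.1% lower. Between 2 and 16 weeks 8 passed (3 rose, 5 fell), against 25.8% of all genes, 12.0% higher and 13.8% lower. The members' counts therefore do not stand above the background of genes that change with age. The member median by 8 weeks was -0.47, but -0.07 without the sex term and -0.11 without PBS replicate 2 of 8 weeks. By 16 weeks it was -0.33, but 0.12 without the sex term. Without PBS replicate 2 of 8 weeks 1 member passed by 8 weeks, without PBS replicate 2 or 3 of 2 weeks 3 did in each case, and by 16 weeks 3 passed without PBS replicate 3 of 2 weeks or of 16 weeks. From 8 to 16 weeks 0 of 33 members passed in edgeR, against 0.278% of all genes. At an unadjusted p under 0.05 there were 5, and 2435 of all 16213 genes. limma-voom called 0, and DESeq2 called 1 (Jchain, 2.04, adjusted p = 0.0242). The age and treatment comparisons share PBS libraries. Neutrophil and cell cycle genes moved with age as well: 7 of 11 tested neutrophil genes fell by 8 weeks, and all 10 genes of a cell cycle list fell, with a median of -3.45. Their part in the changes of lymphocyte genes was not tested.

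**Figure D2:**
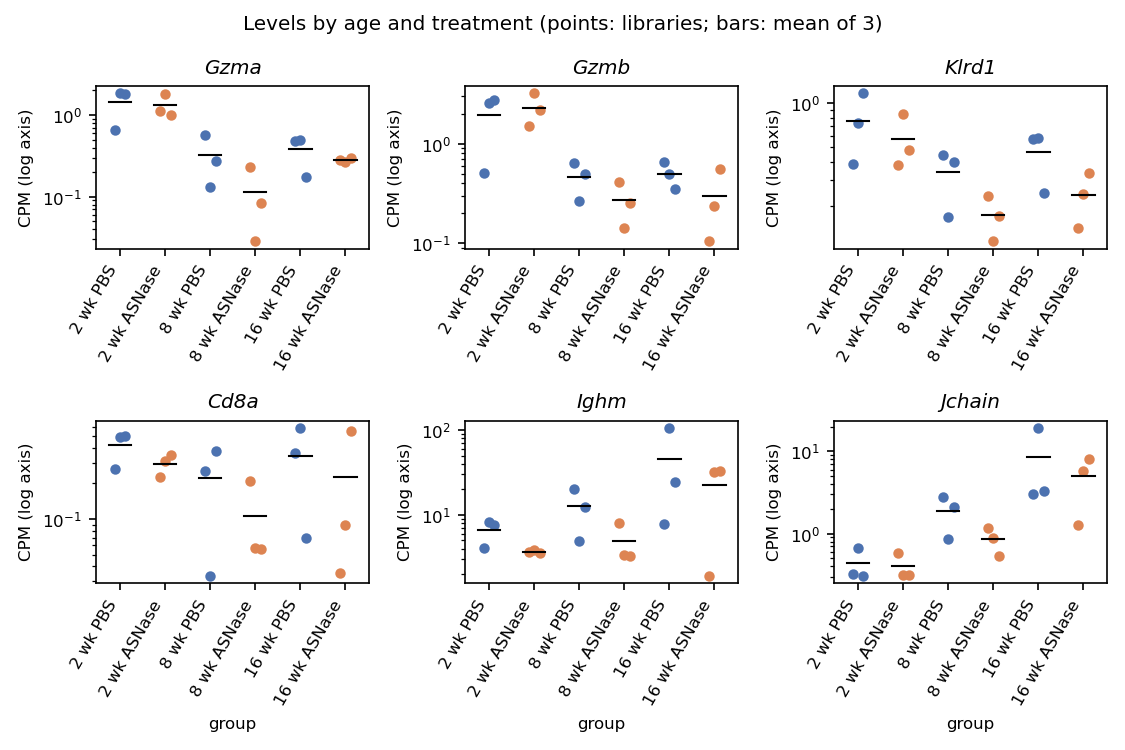
CPM (log axis) of 6 lymphocyte genes in the 6 groups, with 1 point per library, blue for PBS and orange for asparaginase (ASNase), and the mean of 3 as a bar. The means of Gzma, Gzmb and Klrd1 lie highest at 2 weeks, though libraries of Gzmb and Klrd1 overlap between ages. The mean of Jchain climbs from 0.436 CPM at 2 weeks to 8.49 CPM at 16 weeks in PBS livers. Cd8a and Ighm spread widely within the adult groups.

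In the wider pathway lists genes passed in both directions with age. Their shares are to be read against the 29.9% of all genes that passed by 8 weeks and the 25.8% by 16 weeks. Which cells of the liver the transcripts of a list came from was not tested. Of 19 tested genes of the T cell receptor and its signalling, 2 rose and 0 fell from 2 to 8 weeks: the kinase Zap70 (log2 2.66, SE 0.39, adjusted p = 0.000317) and the costimulatory receptor Cd28 (2.80, SE 0.46, adjusted p = 0.000748). Cd28 had 1, 2 and 2 counts in PBS livers of 2 weeks and 14, 7 and 22 at 8 weeks. From 2 to 16 weeks Zap70 and Cd28 rose again and Tcf7, a transcription factor of naive T cells, fell by 0.92. Of 13 tested genes of a further NK list, 1 rose (Serpinb9, an inhibitor of granzyme B, 0.47) and 2 fell by 8 weeks: Klrb1c (NK1.1) fell by 1.24 and Cd244a fell by 1.19. Of 15 tested plasma cell and immunoglobulin genes, 3 rose by 8 weeks (Pigr, Igha and Sdc1) and 9 by 16 weeks, and 0 fell. They included Igha (IgA heavy chain, 3.66 at 16 weeks, SE 0.70, adjusted p = 0.00196), Igkc (kappa light chain, 2.40, SE 0.45, adjusted p = 0.0017) and Pigr (4.11, SE 0.54, adjusted p = 0.000127), the receptor by which epithelial cells and hepatocytes transport IgA. Of 6 tested B cell precursor genes, 1 rose and 3 fell by 8 weeks. Sox4 fell by 1.78 and Cd93 fell by 1.10, whereas Dntt, the polymerase that adds bases at immunoglobulin and T cell receptor joints, rose by 3.91 (SE 0.49, adjusted p = 0.000123), with 6, 3 and 5 counts at 2 weeks and 116, 49 and 76 at 8 weeks. Rag1, the recombinase that cuts those joints, had 26 counts in the 6 libraries of 2 weeks and 0 in each of the 12 older libraries. Zap70, Cd28, Klrb1c, Igha, Igkc, Pigr, Sox4, Cd93 and Dntt passed in 18 of 18 fits that left out 1 library, whereas Tcf7 passed in 13, Serpinb9 in 10 and Cd244a in 4.

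Asparaginase changed 0 of the 33 members past the threshold at any age. At 2 weeks 0.204% of all genes passed (0.16% higher, 0.0432% lower), at 8 weeks 0.444% (0.271% and 0.173%) and at 16 weeks 0.247% (0.204% and 0.0432%), so few calls could be had in a list of this size. DESeq2 and limma-voom also called 0 members at each age. At an unadjusted p under 0.05 there were 4 members at 2 weeks, 11 at 8 weeks and 0 at 16 weeks, where 1841, 2878 and 1751 of all 16213 genes had such a p. The member estimates lay below 0 for 25 of 33 at 2 weeks (median log2 -0.36), for 28 at 8 weeks (median -0.90) and for 19 at 16 weeks (median -0.14), against medians between 0.00 and 0.01 over all genes.

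At 8 weeks the member estimates were lowest, with 28 of 33 below 0, though none passed. The class medians were -0.99 for T cell, -0.74 for NK and cytotoxic and -1.09 for B cell members. The estimates above 0 belonged to T and B cell genes, among them Cd5 (1.09, adjusted p = 0.294) and Cr2 (0.75, adjusted p = 0.615). Cd8b1 had 15, 5 and 10 counts in PBS livers and 1, 1 and 1 in treated ones, a ratio of 11.2 per library size with an exact 95% interval from 3.48 to 57.4 that covers counting error only. Its adjusted p was 0.0648. Cd79b had 50, 20 and 51 counts in PBS livers against 23, 8 and 11 (log2 -1.36, SE 0.39, adjusted p = 0.0981). Klrk1 had 69, 37 and 87 against 43, 26 and 32 (-0.87, SE 0.26, adjusted p = 0.111), and Lck 40, 18 and 45 against 26, 11 and 12 (-0.94, SE 0.28, adjusted p = 0.118). Cd4 had 28, 26 and 22 against 14, 14 and 3 (-1.48, SE 0.45, adjusted p = 0.122). In CPM the groups did not overlap for Cd4, Cd8b1, Nkg7, Klrk1 and Cd79b, which is 5 of 33 members, while 8.57% of all genes lay apart in that direction. Lck overlapped, because the male PBS library was as low as the female treated one.

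Sex was uneven between those groups, with 2 females and 1 male given PBS and 1 female and 2 males given asparaginase, and it was part of the fit. Without the sex term the 8-week median was -1.24. The 8-week estimate also rested on asparaginase replicate 1, the only treated female: without it the median was -0.33, with 22 of 33 members below 0. That library and replicate 2 carried the squamous epithelium transcripts, and without both, which leaves 1 treated library, the median was also -0.33. Within sex, the T cell members summed to 6.63 and 5.82 CPM in PBS females and 3.28 CPM in the treated female, and to 2.85 CPM in the PBS male and 1.79 and 1.58 CPM in treated males. The B cell members without Ighm gave 7.46 and 7.27 CPM against 3.25 CPM in females, and 1.85 CPM against 1.77 and 1.75 CPM in males. Macrophage estimates also lay below 0: the 14 genes of a Kupffer cell and macrophage list had a median of -0.65 at 8 weeks, and 14 of 14 lay below 0. edgeR and limma-voom called 0 of them, with 11 at an unadjusted p under 0.05 in each tool, and DESeq2 called 6. In edgeR 2878 of all 16213 genes had such a p. Whether lymphocytes and macrophages were affected separately was not tested.

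At 2 weeks, B cell members lay lowest in treated livers, with a median of -0.77, against -0.23 for T cell and -0.16 for NK and cytotoxic members. Ms4a1 (CD20) had 20, 32 and 37 counts in PBS livers and 14, 9 and 23 in treated ones (-1.02, SE 0.45, adjusted p = 0.403). Cxcr5 had 15, 15 and 19 against 10, 10 and 6 (-0.98, SE 0.40, adjusted p = 0.348), and Ighm 136, 301 and 276 against 144, 135 and 136. In CPM the groups lay apart for Cd79b, Cr2, Cxcr5, Ighm and Mzb1, 5 of 33 members, where 8.64% of all genes did. Prf1 (perforin) was the member with the smallest p and lay in the other direction, with 3, 3 and 4 counts against 9, 8 and 13 (1.47, SE 0.43, adjusted p = 0.183), and 8.09% of all genes lay apart upward. Without the 3 libraries that held transcripts of both sexes, which leaves 1 PBS library against 2 treated ones, the member median was -0.74. It was -0.17 without asparaginase replicate 1, -0.19 without PBS replicate 3 and -0.59 without asparaginase replicate 3, the library with 50 counts of Glycam1. Pancreatic acinar transcripts were higher in all treated livers of this age, at 1300, 2050 and 732 CPM against 174, 224 and 97.3 CPM, and cell cycle transcripts were lower in all of them, at 63.6, 99.4 and 87 CPM against 161, 140 and 159 CPM. All 10 cell cycle genes lay apart downward (median -1.13). edgeR called 0 of them, with 8 at an unadjusted p under 0.05 (1841 of all 16213 genes), DESeq2 called 4 and limma-voom 1. The 9 erythroid genes had a median of -0.69, and all 3 tools called 0, with 4 at an unadjusted p under 0.05 in each. The part of these transcripts in the estimates was not tested.

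At 16 weeks, treated livers split by library more than by treatment. T cell members summed to 2.50, 2.92 and 8.41 CPM in treated livers and 6.05, 7.50 and 3.96 CPM in PBS livers, and B cell members without Ighm to 1.90, 2.45 and 9.56 CPM against 5.09, 8.41 and 3.29 CPM. The high treated library, replicate 3, was the only treated female, had the fewest counts of all libraries, and was the one with 256 counts of Glycam1 and 4400 CPM of acinar transcripts. A list of spleen and lymph node stroma genes summed to 37.2 CPM there and to 14.7 and 13.0 CPM in the other treated livers. Without it, the member median at 16 weeks moved from -0.14 to -0.40, with 23 of 33 below 0, and still 0 passed. Without PBS replicate 3, the only PBS male, the median was 0.16, so the direction at this age depended on single libraries. Prf1 was the only tested member whose groups lay apart, with 6, 7 and 5 counts in PBS livers and 2, 1 and 4 in treated ones (-0.98, SE 0.52, adjusted p = 0.613), where 9.63% of all genes lay apart downward. All 10 skeletal muscle genes also lay apart downward (median -3.4). edgeR called 0 of them, with 8 at an unadjusted p under 0.05, as had 1751 of all 16213 genes. The part of these transcripts in the member estimates was not tested.

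Averaged over the 3 ages, a comparison added after the data were seen, 0 of 33 members passed in edgeR, against 4.55% of all genes (1.98% higher, 2.57% lower), and 8 had an unadjusted p under 0.05, as had 3510 of all 16213 genes. The lowest p belonged to Ms4a1 (-0.99, SE 0.30, adjusted p = 0.0788), which DESeq2 and limma-voom each called, as their only member (adjusted p = 0.0368 and 0.0471). The member median was -0.41, with 26 of 33 below 0. A joint test of whether the asparaginase effect differed between ages called 0 members and 0.00617% of all genes, and DESeq2 and limma-voom also called 0. In edgeR 6 members had an unadjusted p under 0.05, led by Cd8b1 and Prf1 (adjusted p = 0.302 and 0.360), as had 1449 of all 16213 genes. The differences between ages described above are therefore not shown to differ.

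**Figure D3:**
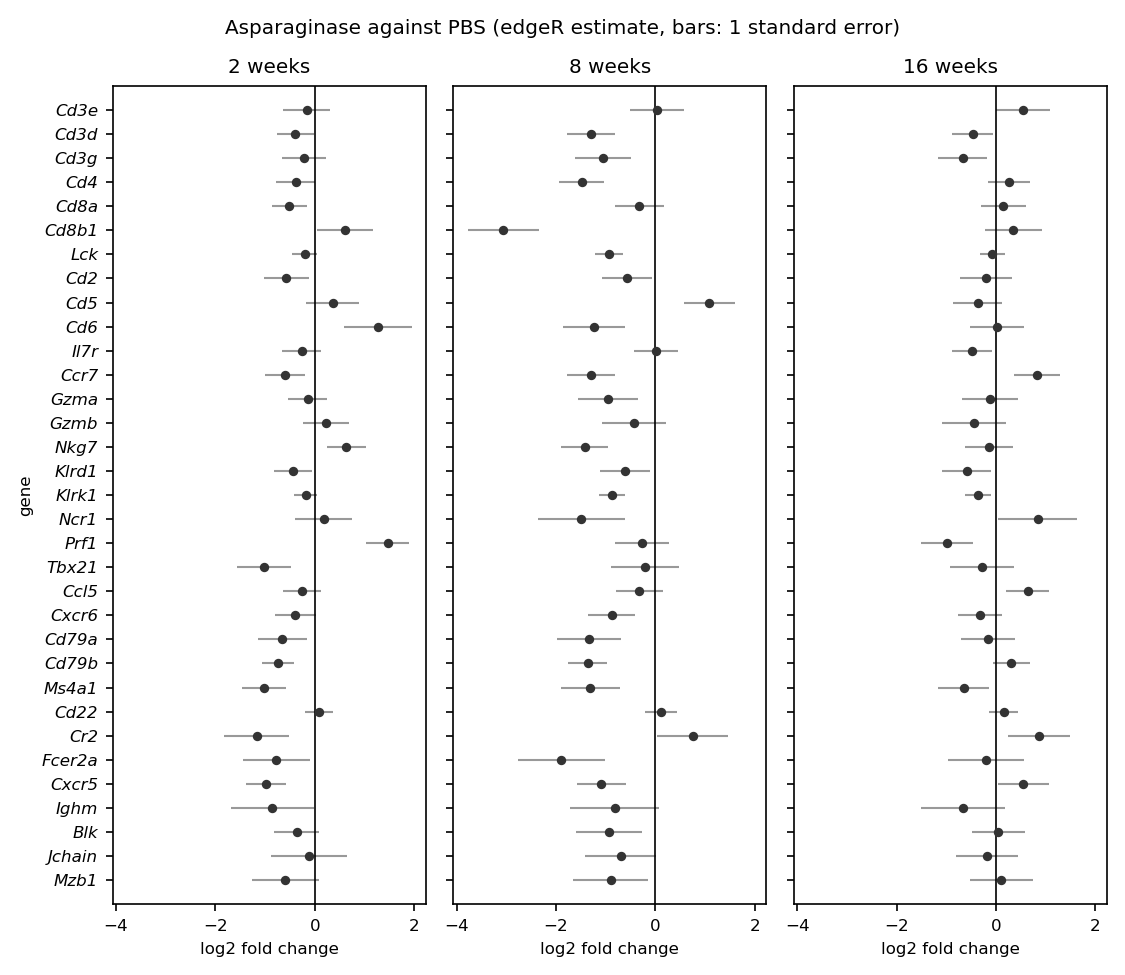
Log2 fold change of asparaginase against PBS (edgeR estimate, bars of 1 standard error) for the 33 tested lymphocyte genes at 2, 8 and 16 weeks, with 0 marked by a line. At 8 weeks 28 of 33 points lie left of 0, with Cd8b1 farthest left, at 16 weeks 19 do, and no gene passed the threshold at any age.

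Of the wider lists, few genes passed with asparaginase. Of 17 tested chemokine, cytokine and adhesion genes, 1 rose with asparaginase at 16 weeks. This was Cxcl13, the chemokine that attracts CXCR5-bearing B cells, with 489, 592 and 464 counts in treated livers against 108, 152 and 66 in PBS livers (log2 2.52, SE 0.26, adjusted p = 0.000535). At 8 weeks Cxcl13 had 46, 17 and 22 counts in treated livers against 93, 26 and 73, and at 2 weeks 17, 14 and 9 against 8, 8 and 13. It was the 1 gene of 16213 whose effect differed between ages in the joint test (adjusted p = 0.0321). The 16-week rise passed in 18 of 18 fits without 1 library (adjusted p at most 0.0279), and the joint test in 10. Marco, a scavenger receptor of macrophages, also rose at 16 weeks, with 1528, 2395 and 1240 counts against 259, 528 and 221 (log2 2.49, SE 0.34, adjusted p = 0.00513), though not without PBS replicate 3 (adjusted p = 0.154). Single genes of the erythroid and squamous lists passed as well: Tfrc, the transferrin receptor, fell by 1.69 at 16 weeks and the squamous gene Dsg1a rose by 3.41 at 8 weeks (adjusted p = 0.0486 and 0.0361), in 5 and 6 of 18 fits without 1 library. Cxcr5, the receptor gene for Cxcl13, had 1, 3 and 16 counts in treated livers of 16 weeks and 10, 14 and 2 in PBS livers, an overlap. Over the 3 ages together, Cxcl9, a chemokine for activated T cells, fell by 0.88 (SE 0.20, adjusted p = 0.0283), Il18 fell by 0.55 (SE 0.11, adjusted p = 0.0155), and S1pr1, which lets lymphocytes leave lymphoid organs and is also an endothelial gene, fell by 0.44 (SE 0.10, adjusted p = 0.0294). Of 18 fits without 1 library, Cxcl9 passed in 13, Il18 in 16 and S1pr1 in 11, and all 3 failed without asparaginase replicate 1 of 8 weeks or replicate 3 of 16 weeks. At 8 weeks edgeR called 0 of 19 T cell receptor, 0 of 13 NK and 0 of 24 B cell receptor list genes. At an unadjusted p under 0.05 there were 6, 5 and 4, and 2878 of all 16213 genes. In the same lists DESeq2 called 2, 0 and 1, and limma-voom called 0 in each.

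The clearest pattern of the lymphocyte genes in adult livers was by sex, which the labels record for each mouse and which was compared after the data were seen. Of 33 members, 14 were lower in males than in females over the mean of 8 and 16 weeks and 0 were higher, against 11.9% of all genes passing (4.64% higher, 7.3% lower). All 33 estimates lay below 0, with a median of -1.27, against -0.02 over all genes. The 6 females and 6 males were split unevenly over treatments, so treatment was in the fit. In each of the 4 adult groups, every female library stood above every male library in the summed CPM of the T cell members, of the NK and cytotoxic members and of the B cell members without Ighm.

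Among T cell genes, 6 of 12 were lower in males: Cd8a, Ccr7, Lck, Cd3d, Cd3e and Il7r (the interleukin 7 receptor, which keeps naive and memory T cells alive). Cd8a had 8 to 20 counts in females (median 13.5) and 1 to 3 in males (median 2.0), with no overlap, and was lower by a log2 difference of -2.60 (SE 0.36, adjusted p = 0.000558). Ccr7 had 10 to 26 counts (median 18.0) against 2 to 7 (median 3.5), again without overlap (-2.01, SE 0.35, adjusted p = 0.00296). For Lck the sexes overlapped in CPM, at 0.600 to 1.48 CPM against 0.313 to 0.735 CPM (-1.03, SE 0.19, adjusted p = 0.00518). Cd4 did not pass (-0.09, adjusted p = 0.877), with medians of 25 counts in females and 23 in males. Without asparaginase replicate 3 of 16 weeks, Cd8a and Cd3e still passed, and Ccr7, Lck, Cd3d and Il7r did not (adjusted p from 0.0571 to 0.128). Cd3e did not pass without PBS replicate 2 of 8 weeks or PBS replicate 3 of 16 weeks (adjusted p = 0.0684 and 0.11), nor Il7r without PBS replicate 2 or asparaginase replicate 1 of 8 weeks (adjusted p = 0.0765 and 0.106).

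Among B cell genes, 7 of 9 tested were lower in males: Ms4a1, Cxcr5, Cd22, Cd79b, Cd79a, Cr2 (complement receptor 2) and Fcer2a (CD23). Ms4a1 had 18 to 40 counts in females (median 25.5) and 1 to 13 in males (median 3.5), a log2 difference of -2.26 (SE 0.40, adjusted p = 0.00378). In CPM its groups overlapped through 1 library of each sex, at 0.415 CPM in the lowest female and 0.455 CPM in the highest male. Ms4a1 passed in 18 of 18 fits without 1 library. Cd22, an inhibitory coreceptor of B cells whose exons overlap an antisense gene, had 42 to 69 counts against 14 to 34 and did not overlap (-1.09, SE 0.22, adjusted p = 0.00697). Ighm and Jchain, with ranges of 261 to 3598 and 51 to 655 counts in females and 54 to 1081 and 19 to 196 in males, did not pass (each -1.28, adjusted p = 0.181 and 0.0932). Of the NK and cytotoxic genes, 1 of 10 tested passed: Ccl5, with 41 to 52 counts in females and 9 to 47 in males (-1.36, SE 0.32, adjusted p = 0.0167). In CPM the sexes lay fully apart for 6 of 33 members (Cd3e, Cd8a, Cd2, Ccr7, Gzmb and Cd22), where 2.22% of all genes lay apart in that direction. Without asparaginase replicate 3 of 16 weeks, Cd79b still passed, and Cxcr5, Cd22, Cd79a, Cr2, Fcer2a and Ccl5 did not (adjusted p from 0.0667 to 0.242). Cd79b was lost without PBS replicate 3 of 16 weeks (adjusted p = 0.0531), and Cxcr5 and Cd79a without PBS replicate 2 of 8 weeks (adjusted p = 0.052 and 0.106), while Ccl5, Cr2 and Fcer2a passed in 14, 11 and 6 of 18 such fits.

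The wider lists of T and B cell genes differed by sex as well. Their counts are to be read against the 7.3% of all genes that passed as lower in males and the 4.64% as higher. Of 24 tested genes of the B cell receptor list, 13 were lower in males and 0 higher, among them Igkc (-1.86, SE 0.32, adjusted p = 0.00323), and of 19 T cell receptor and signalling genes 8 were lower, among them Bcl11b, a T cell transcription factor (-1.77, SE 0.31, adjusted p = 0.00361). The further NK list overlapped between the sexes in summed CPM. It gave 19.8 to 48.4 CPM in females (median 27.9) and 16.9 to 37.9 CPM in males (median 28.6). Its only gene past the threshold was Il18r1 (-0.87, SE 0.25, adjusted p = 0.0368). Il15, the cytokine on which NK cells depend, was lower by -1.04 (SE 0.18, adjusted p = 0.00312). Ccl21a, a chemokine of lymph vessels and nodes, was lower by -1.58 (SE 0.43, adjusted p = 0.0291). Igkc and Il15 passed in 18 of 18 fits without 1 library, Bcl11b in 17 (not without asparaginase replicate 1 of 8 weeks, adjusted p = 0.117) and Ccl21a in 11. Of the 10 cell cycle genes, 8 were lower in males and 0 higher, with a median of -1.36, among them Ccnb1, a cyclin of mitosis (-2.15, SE 0.36, adjusted p = 0.00232), and their summed CPM overlapped between the sexes (25 to 54.3 CPM in females, 22.4 to 43.3 CPM in males). Of 11 neutrophil genes all 11 estimates lay below 0, with a median of -0.87. edgeR and limma-voom called 0 of them, with 5 and 4 at an unadjusted p under 0.05, and DESeq2 called 1. In edgeR at least 11.9% of all genes had such a p by sex, since that share passed after adjustment. Of 14 Kupffer cell and macrophage genes, all 14 estimates lay below 0 with a median of -0.38. edgeR called 0 of them, with 11 at an unadjusted p under 0.05, DESeq2 called 2 and limma-voom 1. The 8 sinusoidal endothelium genes also lay below 0, with a median of -0.13, and all 3 tools called 0, with 1 at an unadjusted p under 0.05. The hepatocyte list summed to 85100 to 107000 CPM in females and 65800 to 83300 CPM in males, without overlap. In it Alb passed as lower in males (-0.55, adjusted p = 0.0455) and Serpina1a as higher (0.45, adjusted p = 0.0232). The dendritic cell list summed to 108 to 182 CPM in females and 82.9 to 110 CPM in males. Irf8 and Itgax passed there, both lower (-0.58 and -0.74, adjusted p = 0.000614 and 0.0266). The stroma list of spleen and lymph node summed to 18.5 to 37.2 CPM in females and 12.8 to 15.2 CPM in males. Acinar transcripts ranged from 9.99 to 4400 CPM in females and from 9.80 to 700 CPM in males. Among adult libraries Glycam1 was highest in asparaginase replicate 3 and PBS replicate 2 of 16 weeks, both female. The part of other cells and tissue, lymph node among them, in the difference was not tested. Of the members, 4 passed without asparaginase replicate 3 of 16 weeks and 7 without PBS replicate 2 of 8 weeks. Over all alternatives the median stayed between -1.43 and -1.09.

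**Figure D4:**
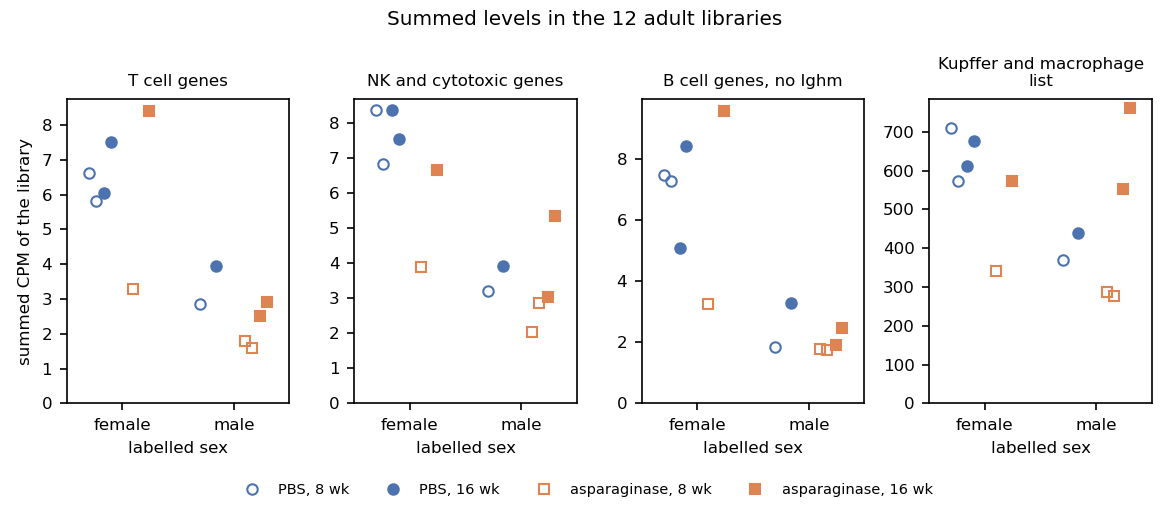
Summed CPM of the T cell, NK and cytotoxic, and B cell (without Ighm) genes and of a Kupffer cell and macrophage list in the 12 adult libraries, by labelled sex, with 1 point per library, circles for PBS and squares for asparaginase, open at 8 and filled at 16 weeks. In the 3 lymphocyte panels the female libraries of each age and treatment lie above the males of the same age and treatment, and in the macrophage panel 1 treated male of 16 weeks is the highest library.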

How the data were processed

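Polyadenylated liver RNA was measured in 18 libraries, as whole-number read counts per gene in 1 table deposited by the authors. The submitters' processing notes name TopHat2 2.0.9, TopHat, DESeq2, GRCm38 and mm10 without roles. Which counter, annotation and strand setting the authors used is not given in the sources used here. For 7 of the 35 matched members, exons overlap another gene, so reads may be shared. Per the labels, the RNA of all ages was sequenced together.

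Symbols and GRCm38 positions came from GENCODE M21 (35449 of 37315 identifiers matched) and promoters from RefSeq. Genes were kept by edgeR's filterByExpr (minimum count 10, minimum total 15), which left 16213. edgeR 4.0.16 (R 4.3.3) with TMM scaling fitted a quasi-likelihood model to the 18 libraries. Its terms were the 6 groups and labelled sex within 8 and within 16 weeks. There was no sex term at 2 weeks because 3 libraries there held transcripts of both sexes. This left 10 residual degrees of freedom. Benjamini-Hochberg adjustment covered all genes of a comparison (threshold 0.05), and every adjusted p in the text is edgeR's unless another tool is named. SE is the absolute log2 change divided by the square root of F. The fits were tested on simulated data.

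The members and the 22 gene lists (299 entries, 292 matched) were chosen with earlier results of these data known. The comparison of sexes, the mean effect over ages, the medians and the motifs were added after the data were seen. Members past the threshold were named with their values, and from other lists at most 3 genes per comparison by smallest p. Alternatives were DESeq2's size factors, no filter, DESeq2 1.42.0, limma-voom (limma 3.58.1), other sex terms, Mup genes (major urinary proteins, abundant in male liver) left out, and libraries left out.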

Additional observations from a re-analysis of the deposited data

Results flagged for a closer look

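Prf1, the perforin gene, moved in opposite directions with asparaginase at the youngest and the oldest age, with every treated library on 1 side of every PBS library at each. At 2 weeks the log2 difference was 1.47, with 3, 3 and 4 counts in PBS livers and 9, 8 and 13 in treated ones, and at 16 weeks it was -0.98, with 6, 7 and 5 counts against 2, 1 and 4. Neither difference passed the threshold (adjusted p = 0.183 and 0.613, edgeR). The joint test of a different effect between ages gave an adjusted p of 0.360 for Prf1. At 8 weeks the counts were 6, 1 and 6 against 4, 3 and 2, which overlap. With counts this low, single reads move the fold.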

How the results depend on the processing

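Alternatives were DESeq2's size factors in edgeR, no filter on low counts, DESeq2, limma-voom, no sex term, a sex term at all 3 ages, Mup genes left out, the 2-week libraries with transcripts of both sexes left out, the 8-week libraries with squamous transcripts left out, and each of the 18 libraries left out in turn. No paired analysis was made, because each library was treated as 1 mouse and the labels name no pairs. No value of a called member reversed: of 742 such values, 620 stayed past the threshold and 122 did not. Gzma (2 to 8 weeks) and Jchain (2 to 16 weeks) passed in each of the 9 alternatives and 18 of 18 fits without 1 library. The count of members changed between 2 and 8 weeks, 6, was 3 with no sex term and ranged from 1 to 7 with 1 library left out. The count between 2 and 16 weeks, 8, was 5 with no sex term, 5 without the 2-week libraries of both sexes and 5 without the 8-week squamous libraries, and ranged from 3 to 8 with 1 library left out: 4 without PBS replicate 2 of 2 weeks, 5 without PBS replicate 1 of 16 weeks and 5 without asparaginase replicate 3 of 16 weeks. DESeq2 called 1 member between 8 and 16 weeks and 1 for the mean effect of asparaginase, and limma-voom 1 for the mean effect, where edgeR called 0. The mean effect ranged from 0 to 1 with 1 library left out, the 1 being Klrk1 without asparaginase replicate 2 of 16 weeks (log2 -0.54, adjusted p = 0.0367). The count by sex, 14, was 8 without the 8-week squamous libraries and ranged from 4 to 17 with 1 library left out. The cause of these shifts was not tested. For asparaginase at each age and for its difference between ages, the count was 0 under all of these alternatives. The member median, -0.36, -0.90 and -0.14 at 2, 8 and 16 weeks, ranged over all alternatives from -0.74 to -0.17, from -1.24 to -0.33 and from -0.53 to 0.16. Many members had under 20 reads in a library, so a difference of a few reads was not detectable at this depth.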
